A study of Mus musculus with 2 samples.

Results

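The secondary granule genes described here are 8 symbols, Ltf, Camp, Ngp, Chil3, Mmp8, Cd177, Fcnb and Cybb, taken by name from the 31053 genes of the count tables. They were chosen as genes of the specific (secondary) granule that mark immature neutrophils, and all 8 were counted in both libraries. The cells were bone marrow cells of C57BL/6 mice at 6 months of age, with atherosclerosis as the labelled disease, profiled by droplet-based 3′ single-cell RNA sequencing. Both groups carried the genotype label Apoe(-/-), the loss of the apolipoprotein E gene that raises plasma cholesterol in mice. One library was labelled Itgb3(-/-), lacking integrin β3, and the other Itgb3(+/+), and they are named null-labelled and control-labelled here. With 1 library per genotype and no number of animals given, every difference is between 2 libraries, no test between genotypes was possible, and all 95% intervals cover counting error only.

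Neutrophils fill their granules in sequence while they mature in the marrow. Promyelocytes make the primary granules, myelocytes and metamyelocytes, which correspond roughly to dividing pre-neutrophils and immature neutrophils, make the secondary granules, and band and segmented cells add gelatinase granules. The transcripts of each granule type are made during a limited window, and the transcription factor C/EBPε is known to be required for secondary granule genes in mice.

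The 8 genes encode proteins of different kinds. Ltf encodes lactoferrin, an iron-binding protein that withholds iron from microbes. Camp encodes the cathelicidin antimicrobial peptide, and Ngp a neutrophil granule protein related to cathelicidins and cystatins. Chil3 encodes a chitinase-like lectin without chitinase activity, also called Ym1, and Fcnb encodes ficolin B, a lectin that recognises sugars on microbes. Mmp8 encodes the neutrophil collagenase, Cd177 a surface protein held in secondary granule membranes, and Cybb the large subunit of the membrane flavocytochrome of the phagocyte NADPH oxidase.

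On mm10 (GENCODE vM21), 4 of the 8 genes lie on chromosome 9. Camp (ENSMUSG00000038357, 109847379 to 109849617, minus strand), Ngp (ENSMUSG00000032484, 110419747 to 110423012, plus strand) and Ltf (ENSMUSG00000032496, 111019271 to 111042767, plus strand) fall within 1195 kb that holds 31 protein-coding genes, these 3 included. Mmp8 (ENSMUSG00000005800) lies far from them at 7558456 to 7568485 on the plus strand. Chil3 (ENSMUSG00000040809) is on chromosome 3 from 106147554 to 106167564, Cd177 (ENSMUSG00000052212) on chromosome 7 from 24743983 to 24760311, Fcnb (ENSMUSG00000026835) on chromosome 2 from 28076378 to 28084885 and Cybb (ENSMUSG00000015340) on chromosome X from 9435252 to 9487771, all on the minus strand. No annotated gene overlapped any of the 8. Transcripts of Chil3 and its neighbour Chil4 were identical at 94.4% of 1538 aligned bases, and Chil4 had 0 UMIs in immature neutrophil-like cells of both libraries.

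Promoter sequences from RefSeq (GRCm38.p6) were matched for 8 of 8 genes. They were searched on both strands, over the 250 bases before the RefSeq start, for the C/EBP core TTGCNNAA, the kind of element bound by the family that includes C/EBPε, and for the ETS core GAGGAA, the kind bound by PU.1. The C/EBP core occurred in 4 of 8 genes, against 9.56% of 32851 promoter windows of the same length, and the ETS core in 3 of 8, against 23.3%. The letters lay 75 to 68 bases before the RefSeq start in Ltf, 138 to 131 and 11 to 4 in Ngp, 19 to 12 in Mmp8, and 235 to 228 and 123 to 116 in Fcnb. A match of letters is a description of the window and not a measured binding site. The windows of these 4 genes are shown because they carry the C/EBP core, on each gene's own strand, without bases that GENCODE annotates as exon, and with the core in capitals. They span chr9:111019042-111019270 (Ltf, plus strand), chr9:110419558-110419746 (Ngp, plus strand, whose second match lies in annotated exon and is left out), chr9:7558179-7558428 (Mmp8, plus strand) and chr2:28084886-28085128 (Fcnb, minus strand).
Ltf: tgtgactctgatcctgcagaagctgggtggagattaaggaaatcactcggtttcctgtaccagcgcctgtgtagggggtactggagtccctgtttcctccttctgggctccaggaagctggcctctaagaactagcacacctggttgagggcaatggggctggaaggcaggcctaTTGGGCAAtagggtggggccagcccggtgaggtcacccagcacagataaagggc
Ngp: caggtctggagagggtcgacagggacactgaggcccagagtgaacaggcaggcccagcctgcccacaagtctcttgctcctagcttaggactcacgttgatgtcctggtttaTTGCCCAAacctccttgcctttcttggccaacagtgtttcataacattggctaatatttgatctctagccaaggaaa
Mmp8: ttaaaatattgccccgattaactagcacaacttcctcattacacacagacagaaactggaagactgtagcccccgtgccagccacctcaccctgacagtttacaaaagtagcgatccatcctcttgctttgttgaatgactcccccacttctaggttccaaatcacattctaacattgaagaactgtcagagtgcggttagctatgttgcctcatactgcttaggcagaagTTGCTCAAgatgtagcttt
Fcnb: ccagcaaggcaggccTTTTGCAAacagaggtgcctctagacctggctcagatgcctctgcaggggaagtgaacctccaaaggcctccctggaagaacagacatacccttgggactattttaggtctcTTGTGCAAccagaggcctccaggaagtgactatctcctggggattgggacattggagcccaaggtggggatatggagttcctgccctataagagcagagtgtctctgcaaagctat

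Filtering left 2903 null-labelled cells, at a median depth of 9311 UMIs and 33499181 UMIs in all, and 8595 control-labelled cells, at a median depth of 4808 and 59013746 in all. The libraries shared 11 cell barcodes, of which 6 were kept. Itgb3 itself was counted at 7.43 CPM (UMIs per 1e+06 UMIs of the cells summed) and 23.6 CPM over all cells, at 7.22 and 8.95 CPM without megakaryocyte-like cells, and at 7.96 and 14.7 CPM in granulocyte-lineage cells, so its transcripts were also counted under the Itgb3(-/-) label. Apoe was counted at 62.5 and 99.5 CPM although both genotypes carry its deletion by label, and 3′ counts need not lie in the deleted part of either gene. In 125 of 129 clusters a single library gave at least 90% of the cells, and of 33 granulocyte clusters 1 held cells of both, so library and cluster cannot be told apart. Interferon response genes were higher on the null-labelled side at each granulocyte stage, with a median log2 ratio between 4.06 and 5.61.

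Granulocytes were divided into stages by marker genes that did not include the 8 genes, and the 8 genes were left out of the clustering. Promyelocyte-like cells, with Mpo, Elane and Prtn3 among their markers, numbered 101 in the null-labelled and 366 in the control-labelled library. Dividing pre-neutrophil-like cells, with immature markers such as Wfdc21 and Ly6g and with cell division genes, numbered 198 and 467. Immature neutrophil-like cells without division genes numbered 294 and 774, and mature neutrophil-like cells, with Cxcr2, Csf3r and Retnlg among their markers, 133 and 1291. A further 342 control-labelled cells had markers of immature and mature neutrophils and no stage. Median UMIs per cell ran from 37746 (promyelocyte-like) to 6373 (mature neutrophil-like) in the null-labelled library and from 19277 to 2433 in the control-labelled library.

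These 8 transcripts made up a large part of the RNA of the middle stages. They took 12.96% of all UMIs in dividing pre-neutrophil-like cells of the null-labelled library and 13.16% in those of the control-labelled library. In immature neutrophil-like cells they took 12.3% and 12.0%. In promyelocyte-like cells the shares were 1.205% and 1.965%, and in mature neutrophil-like cells 6.06% and 1.04%. In single cells, the middle 80% of dividing pre-neutrophil-like cells lay between 8.80% and 16.5% in the null-labelled and between 10.7% and 15.4% in the control-labelled library. Immature neutrophil-like cells spread wider, at 5.92% to 16.5% and 7.68% to 15.1%. Granulocyte-lineage cells, which were 25.01% and 37.7% of the cells, held 99.2% and 98.0% of all UMIs of the 8 genes.

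**Figure D1:**
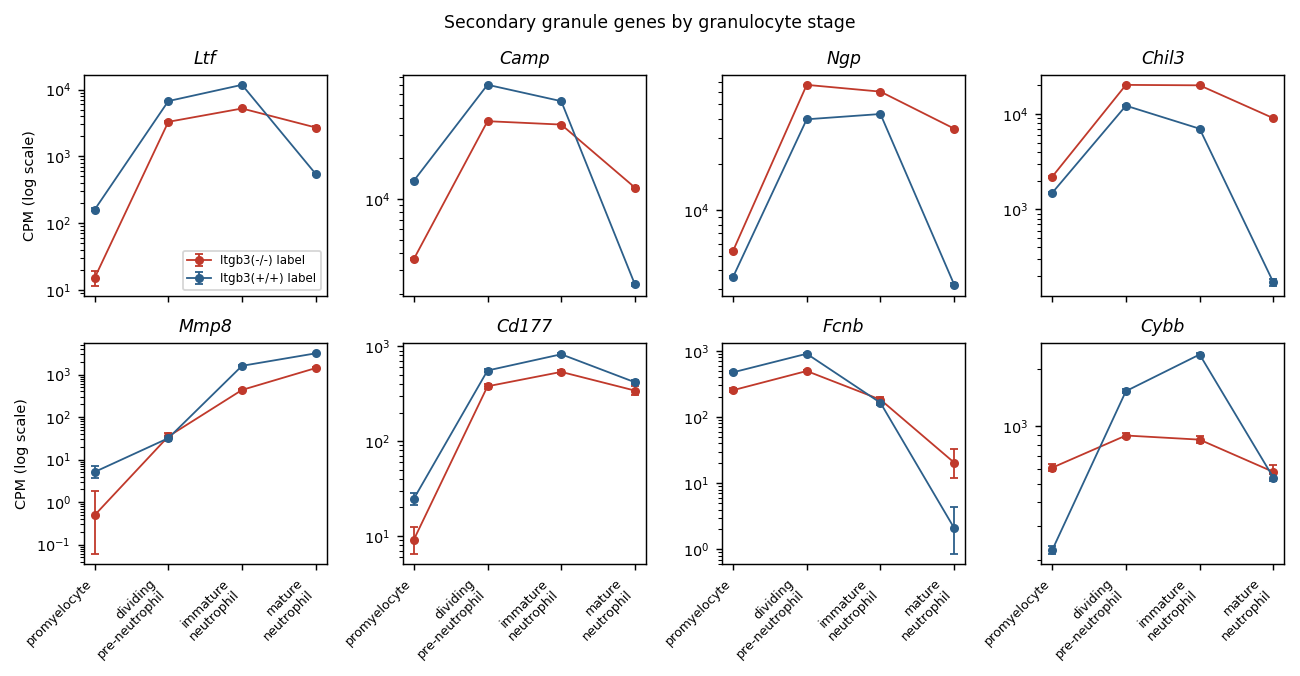
Level of each of the 8 genes by granulocyte stage in the null-labelled (red) and control-labelled (blue) libraries, as CPM of the stage on a log axis with exact 95% Poisson intervals (counting error only). Ltf is highest in immature neutrophil-like cells of both libraries (5201 and 11753 CPM) and Mmp8 in mature neutrophil-like cells (1422 and 3158 CPM).

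The 8 genes did not share 1 peak. Camp, Chil3 and Fcnb were highest in dividing pre-neutrophil-like cells of both libraries, Ltf and Cd177 in immature neutrophil-like cells of both, and Mmp8 in mature neutrophil-like cells of both. Ngp and Cybb peaked in dividing pre-neutrophil-like cells of the null-labelled and in immature neutrophil-like cells of the control-labelled library. Several of these peaks were near ties. In immature cells of the null-labelled library, Camp, Ngp, Chil3 and Cybb lay only 0.083, 0.148, 0.015 and 0.072 lower on the log2 scale. By cluster, Camp and Cybb were highest in that library in an immature neutrophil-like cluster, at 45580 and 1031 CPM. By highest stage, 7 of the 8 thus peaked in the 2 middle stages that carry immature markers, and Mmp8 was later than its label. By cluster of the control-labelled library, Mmp8 was highest in 1 without a stage, at 4621 CPM, between the immature and mature clusters in marker share.

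Fcnb was the earliest of the lectins. It stood at 254 CPM in promyelocyte-like, 496 CPM in dividing, 183 CPM in immature and 20.5 CPM in mature neutrophil-like cells of the null-labelled library. In the control-labelled library it stood at 474, 905, 164 and 2.10 CPM. In both libraries the level in promyelocyte-like cells exceeded that in immature neutrophil-like cells, which held for none of the other 7 genes. By clusters of the control-labelled library, Fcnb reached 1611 CPM in the promyelocyte-like cluster with the lowest promyelocyte markers and 4.75 CPM in the immature neutrophil-like cluster richest in mature markers.

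Camp followed, with the antimicrobial precursor already abundant in the latest promyelocyte-like cells. In the control-labelled library it ran from 13657 CPM in promyelocyte-like cells to 70077 CPM in dividing pre-neutrophil-like cells, 53000 CPM in immature and 2332 CPM in mature neutrophil-like cells. In the null-labelled library the values were 3595, 37681, 35570 and 12152 CPM. Within promyelocyte-like cells its level ranged over clusters of the control-labelled library from 47.7 to 59615 CPM, so the stage's mean depends on which clusters it holds.

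Ngp had a broad plateau over both middle stages. It stood at 5369, 66757, 60240 and 34364 CPM from promyelocyte-like to mature neutrophil-like cells of the null-labelled library, and at 3612, 39586, 42888 and 3224 CPM in the control-labelled library. Chil3 had the same early entry but an earlier end in the control-labelled library. Its values there were 1490, 12172, 6989 and 173 CPM, and those of the null-labelled library were 2198, 20092, 19888 and 9011 CPM.

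Ltf was nearly absent from promyelocyte-like cells and had the steepest entry among the abundant genes. In the null-labelled library it stood at 15.1 CPM there, then at 3282 CPM in dividing, 5201 CPM in immature and 2700 CPM in mature neutrophil-like cells. In the control-labelled library the values were 159, 6711, 11753 and 544 CPM. The step from promyelocyte-like to dividing cells was 218-fold and 42.3-fold for Ltf, against 10.5-fold and 5.13-fold for Camp. The membrane protein gene Cd177 had the same order at 9.13, 378, 535 and 340 CPM in the null-labelled and 24.7, 554, 822 and 417 CPM in the control-labelled library.

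Mmp8 came last. From promyelocyte-like to mature neutrophil-like cells it stood at 0.494, 35.1, 435 and 1422 CPM in the null-labelled library, the first from 2 UMIs, and at 5.13, 32.0, 1606 and 3158 CPM in the control-labelled library. Between dividing and immature cells the collagenase transcript differed 12.4-fold and 50.3-fold, a step at which Camp differed by less than 1.5-fold in both libraries. Cybb was present at every stage, at 606, 893, 850 and 576 CPM in the null-labelled and 225, 1525, 2371 and 538 CPM in the control-labelled library.

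**Figure D2:**
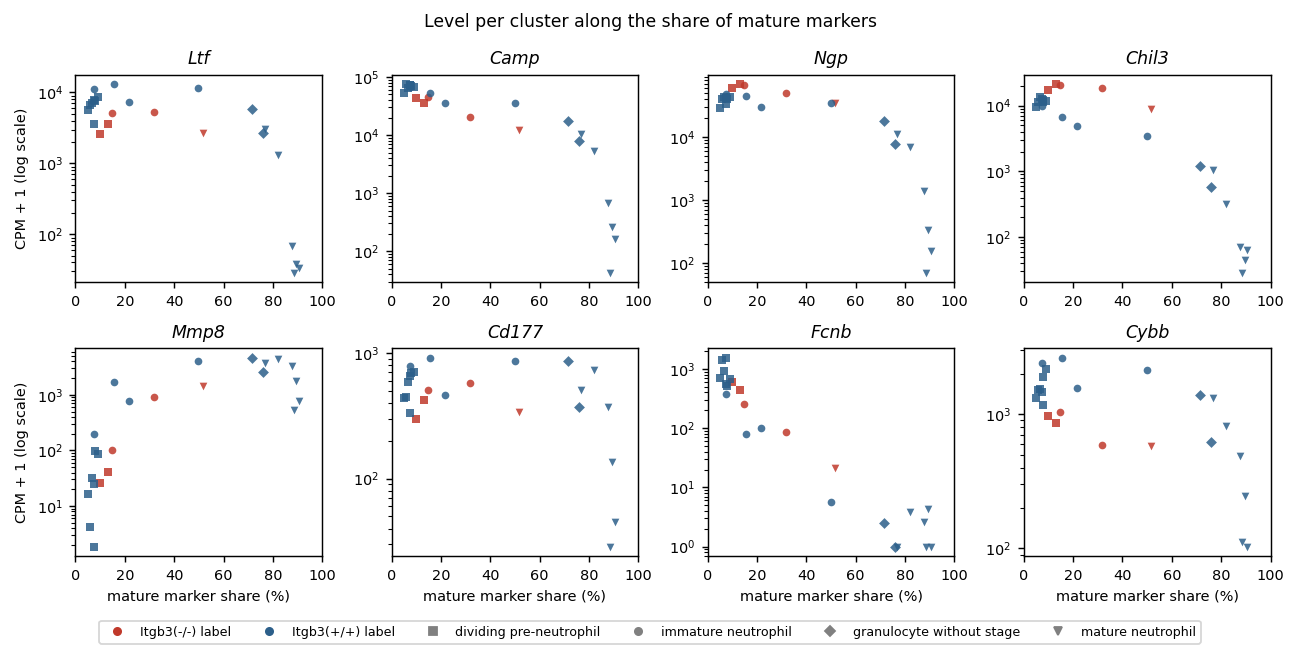
Level of each gene (CPM + 1, log axis) in every cluster of dividing, immature, unstaged and mature granulocytes, against the share of mature markers among its immature and mature marker UMIs, with color for the library and shape for the stage. The mature neutrophil-like cluster of the null-labelled library lies at 51.7% and those of the control-labelled library between 76.7% and 90.4%.

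The order was finer along clusters of the control-labelled library, placed by the share of mature markers among their immature plus mature marker UMIs. Between the immature neutrophil-like cluster at 7.40% and that at 49.8%, Fcnb went from 368 to 4.75 CPM, Chil3 from 9828 to 3502 CPM and Camp from 67308 to 35206 CPM. At these ends Ltf was alike at 11289 and 11688 CPM, with 13157 and 7373 CPM in the 2 clusters between, and Mmp8 went from 197 to 3989 CPM. Among mature neutrophil-like clusters between 76.7% and 90.4%, Ltf ranged from 3028 to 27.7 CPM and Ngp from 11333 to 69.4 CPM. The highest values were from 29 cells at 76.7% and the lowest from 13 cells at 88.3%. In the larger clusters at 82.0% and 90.4% (303 and 196 cells), Ltf was at 1291 and 32.8 CPM and Ngp at 7088 and 157 CPM. Among mature neutrophil-like clusters, Mmp8 was highest at 82.0%, with 4489 CPM, and still at 762 CPM in the cluster at 90.4%. Over all clusters of this library Mmp8 was highest in a cluster without a stage (285 cells at 71.6%), with 4621 CPM. The null-labelled library had 1 mature neutrophil-like cluster and none beyond 51.7%, so the loss of these transcripts in later cells could not be followed there.

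Between libraries, the genes were counted as lower or higher in the null-labelled library at a 2-fold ratio of CPM, provided that 1 library reached 50 CPM and the 2 together 30 UMIs. In immature neutrophil-like cells, the stage the genes are named for, 3 of 8 were lower, against 12.7% of 1955 genes tested, and 1 of 8 was higher, against 15.3%. The 3 lower genes were Ltf, Mmp8 and Cybb, and the higher one was Chil3. The stage was not cut alike in the libraries. Its control-labelled part (774 cells) included a cluster of 210 cells at 49.8% mature marker share. The null-labelled cluster at 51.7% was named mature. Summed mature markers of the stage were at 4395 CPM (null-labelled) and 6388 CPM (control-labelled). The part of this in the stage ratios was not tested. The median log2 ratio over the 8 genes was -0.60, beside 0.04 over all genes tested. The sum of the 8 genes hardly differed at this stage (12.3% and 12.0% of UMIs), while single genes differed in opposite directions.

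Ltf was 2.26-fold lower in immature neutrophil-like cells of the null-labelled library (95% interval 2.22 to 2.30). Its levels were 5128 to 5308 CPM over 2 null-labelled and 7373 to 13157 CPM over 4 control-labelled clusters. Clusters are not replicates of a library, and the share of all genes without overlap between them was not counted. Under 9 other choices of cells, scaling or weighting, the log2 ratio lay between -1.50 and -1.04. Mmp8 was 3.69-fold lower (3.48 to 3.91), but its cluster ranges overlapped, at 100 to 927 CPM and 197 to 3989 CPM, and its log2 ratio ranged from -3.38 to -1.52 under those choices. Cybb was 2.79-fold lower (2.67 to 2.91), with 584 to 1031 CPM over null-labelled and 1581 to 2629 CPM over control-labelled clusters.

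Chil3 was 2.85-fold higher (2.81 to 2.88), at 18272 to 20988 CPM over null-labelled and 3502 to 9828 CPM over control-labelled clusters. Ngp was 1.40-fold higher (1.40 to 1.41) and Camp 1.49-fold lower (1.48 to 1.50), both under the 2-fold size. Cd177 was 1.53-fold lower (1.45 to 1.63). Fcnb was at 183 and 164 CPM, with a ratio of 1.12 (1.00 to 1.24) and a log2 ratio between 0.016 and 1.02 under the other choices.

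The 2 immature neutrophil-like clusters most alike in marker share lay at 14.7% in the null-labelled and 15.5% in the control-labelled library. Directions there were those of the whole stage, of which these clusters are part, so the likeness is partly built in. Ltf stood at 5128 and 13157 CPM, Cybb at 1031 and 2629 CPM and Mmp8 at 100 and 1694 CPM. Chil3 stood at 20988 and 6797 CPM and Ngp at 66748 and 45581 CPM. Camp was closer, at 45580 and 53590 CPM, and Cd177 was at 508 and 911 CPM. Fcnb was at 251 and 77.0 CPM, a wider gap than over the whole stage.

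**Figure D3:**
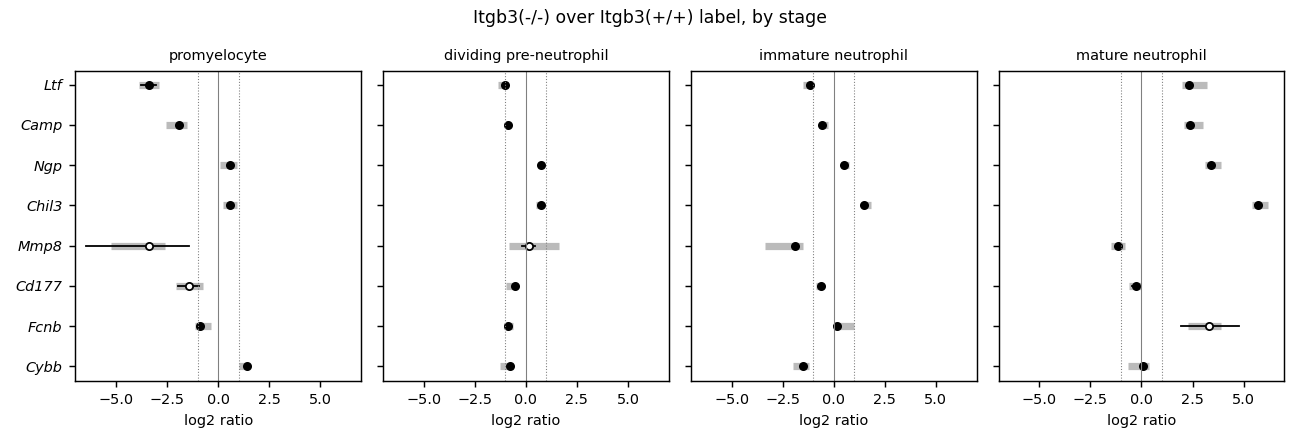
Log2 ratio of CPM, null-labelled over control-labelled library, for each gene by stage. Points are the stage values (open where the gene was under the count minimum), black lines 95% intervals of counting error, grey bars the range over other choices of cells, scaling and weighting, and dotted lines the 2-fold size. Ltf lies at -1.03 in dividing and -1.18 in immature cells and at 2.31 in mature cells. The grey bars leave out the sets of clusters chosen after the data were seen. Against the control-labelled cluster nearest in marker share, Ltf and Camp of mature cells had the opposite sign.

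Ratios of UMIs between genes of the same cells do not depend on the scaling to all UMIs. For each Ngp UMI, immature neutrophil-like cells held 0.0863 Ltf UMIs (0.0850 to 0.0877) in the null-labelled and 0.274 (0.272 to 0.277) in the control-labelled library. Camp UMIs per Ngp UMI were 0.590 and 1.24 in those cells, 0.564 and 1.77 in dividing pre-neutrophil-like cells, 0.670 and 3.78 in promyelocyte-like cells and 0.354 and 0.723 in mature neutrophil-like cells. The null-labelled library was thus lower in this ratio at all 4 stages. Chil3 UMIs per Camp UMI were higher in it at all 4, for example 0.559 against 0.132 in immature neutrophil-like cells. Ltf UMIs per Camp UMI were 0.00419 and 0.0116 in promyelocyte-like, 0.0871 and 0.0958 in dividing, 0.146 and 0.222 in immature and 0.222 and 0.233 in mature cells.

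Camp and Ngp were also counted at low levels outside granulocytes. Whether these UMIs were free RNA from granulocytes of the same library was not tested, so their ratios are no separate evidence of the contrast. Erythroid-like cells held 150 Camp and 339 Ngp UMIs in the null-labelled library, a ratio of 0.442 (0.363 to 0.538), and 1417 and 1000 UMIs in the control-labelled library, a ratio of 1.42 (1.31 to 1.54). In B precursor-like cells the ratios were 0.305 (0.169 to 0.525) and 1.75 (1.48 to 2.08). In mature B-like cells they were 0.598 (0.447 to 0.797) and 1.59 (1.30 to 1.96). In T-like cells, with 28 and 35 UMIs in the null-labelled library, the intervals of the ratios overlapped, at 0.469 to 1.35 and 1.03 to 2.17.

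In dividing pre-neutrophil-like cells 7 of the 8 genes passed the minimum. Ltf was lower, 1 of 7 against 11.3% of 2087 genes, and none was higher, against 10.6%. Ltf lay at the 2-fold size, 2.04-fold lower (2.00 to 2.09), and its log2 ratio ranged from -1.37 to -0.90 over other choices of cells, scaling and weighting, so its call depends on the setting. Camp was 1.86-fold lower (1.85 to 1.87) at 35040 to 42688 CPM over 2 null-labelled and 52997 to 75870 CPM over 7 control-labelled clusters. Fcnb was 1.82-fold lower (1.73 to 1.92), Cybb 1.71-fold lower (1.64 to 1.78) and Cd177 1.47-fold lower (1.38 to 1.56). Ngp was 1.69-fold higher (1.68 to 1.70) and Chil3 1.65-fold higher (1.63 to 1.67). Over clusters, Ngp was at 60811 to 69892 CPM in the null-labelled and 28873 to 43031 CPM in the control-labelled library. Mmp8 was at 35.1 and 32.0 CPM, under the minimum. The median log2 ratio was -0.77, beside -0.11 over all genes tested.

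In promyelocyte-like cells 6 of the 8 passed. Ltf and Camp were lower, 2 of 6 against 6.74% of 2832 genes, and Cybb was higher, 1 of 6 against 10.2%. Ltf was 10.5-fold lower (8.14 to 13.9), from 61 UMIs in the null-labelled library, and Camp 3.80-fold lower (3.73 to 3.87). Cybb was 2.70-fold higher (2.53 to 2.88). Promyelocyte-like clusters with at least 4000 CPM of immature markers, 39 and 98 cells chosen after the data were seen, kept Ltf and Camp lower, at -4.59 and -2.04 on the log2 scale, and put Cybb at 0.32, below the 2-fold size. Cd177 passed the minimum there and was lower, at -1.53. Summed promyelocyte markers differed as well, at 13204 and 30744 CPM over the stage, and their part in these differences was not tested. Ngp was 1.49-fold higher (1.46 to 1.51), Chil3 1.48-fold higher (1.43 to 1.52) and Fcnb 1.86-fold lower (1.74 to 2.00), while Cd177 and Mmp8 were under the minimum. The median log2 ratio was -0.17, beside 0.06 over all genes tested.

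In mature neutrophil-like cells 7 of the 8 passed. Ltf, Camp, Ngp and Chil3 were higher in the null-labelled library, 4 of 7 against 24.3% of 2469 genes, and Mmp8 was lower, 1 of 7 against 17.7%. By the whole stage, Ltf was 4.96-fold (4.67 to 5.28), Camp 5.21-fold (5.06 to 5.37), Ngp 10.7-fold (10.4 to 10.9) and Chil3 52.2-fold (48.0 to 56.9) higher. Mmp8 was 2.22-fold lower (2.09 to 2.36). Other choices of cells, scaling and weighting put its log2 ratio between -1.47 and -0.80, so its call depends on the setting. This range leaves out the sets matched after the data were seen. Fcnb was under the minimum, with 18 and 7 UMIs. Cd177 was at 340 and 417 CPM and Cybb at 576 and 538 CPM, a ratio of 1.07 (0.969 to 1.18). The median log2 ratio was 2.31, beside 0.10 over all genes tested.

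The mature stage did not hold like cells in the libraries. Summed mature markers were at 12324 CPM (null-labelled) and 55562 CPM (control-labelled). The 133 null-labelled mature cells were set against the control-labelled cluster of 210 cells nearest in marker share (49.8%, named immature). Ltf and Camp then had log2 ratios of -2.11 and -1.53, the opposite sign of the stage. Ngp was alike, at a log2 ratio of -0.0082 (34364 and 34559 CPM). Chil3 stayed higher at 1.36 and Mmp8 lower at -1.49, and Cybb (-1.88) and Cd177 (-1.35) were then lower by over 2-fold. Set against the 332 control-labelled mature cells with at least 10000 CPM of immature markers, Ltf was at 0.91, Camp at 1.09, Ngp at 2.21, Chil3 at 4.57, Mmp8 at -1.64, Cybb at -0.58 and Cd177 at -1.07. Both matched sets were chosen after the data were seen. No direction is read for Ltf, Camp, Ngp and Cybb in mature cells, whereas Chil3 was higher and Mmp8 lower in the null-labelled library under all 3 choices of cells. Cd177 was lower under all 3 as well, but over the whole stage by less than the 2-fold size (log2 ratio -0.29).

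Shares of cells with a transcript were compared after each cell was thinned to 1000 UMIs, because depth per cell differed. Among immature neutrophil-like cells, Mmp8 was found in 35.3% of 292 null-labelled cells (95% Clopper-Pearson interval 29.8% to 41.1%) and 57.2% of 771 control-labelled cells (53.6% to 60.7%). Before thinning the shares were 62.6% and 66.9%, at median depths of 10153.5 and 6066.5 UMIs. The control-labelled cells here included the cluster at 49.8% mature marker share, where Mmp8 was at 3989 CPM. Thinned erythroid-like cells, which do not make this collagenase, had it in 0.105% and 0.384% (0.208% and 2.17% unthinned, at median depths of 10026.5 and 5732.5 UMIs). Cybb was found in 44.9% (39.1% to 50.8%) and 89.5% (87.1% to 91.6%) of thinned immature neutrophil-like cells (94.6% and 99.9% unthinned). Among erythroid-like cells it was found in 0 of 948, which allows a share of cells with a UMI of up to 0.316% (3 cells of the total), and in 0.384% of 2083 (1.04% and 2.31% unthinned). Ltf was in 97.6% (95.1% to 99.0%) and 99.6% (98.9% to 99.9%) of thinned immature neutrophil-like cells, so its difference was one of level among cells that nearly all held it. Per cell, Ltf took a median of 0.512% of UMIs in the null-labelled and 1.18% in the control-labelled library at that stage, with the middle 80% of cells at 0.265% to 0.814% and 0.783% to 1.62%.

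**Figure D4:**
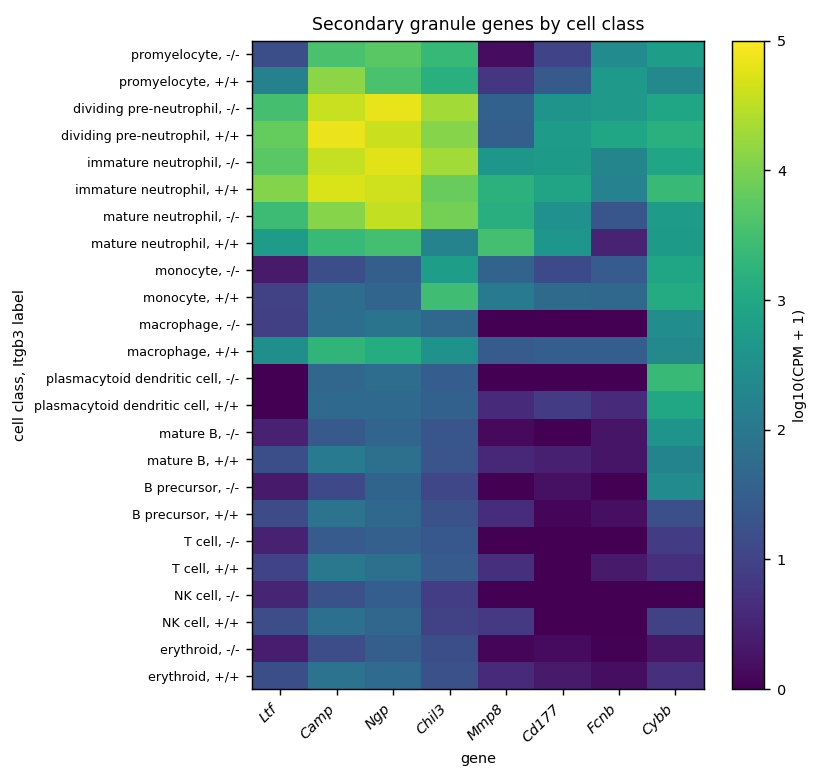
Levels of the 8 genes as log10(CPM + 1) in 12 cell classes, each with the null-labelled library (-/-) above the control-labelled library (+/+). Cybb and Chil3 reach beyond granulocytes, with Cybb at 2474 and 1007 CPM in plasmacytoid dendritic cell-like cells and Chil3 at 642 and 2899 CPM in monocyte-like cells.

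Outside granulocytes, Cybb was counted in several classes and Chil3 in monocyte-like cells. Cybb, whose oxidase is shared by phagocytes and B cells, stood at 857 and 1166 CPM in monocyte-like cells, 2474 and 1007 CPM in 22 and 61 plasmacytoid dendritic cell-like cells and 378 and 178 CPM in mature B-like cells. In B precursor-like cells the values were 255 CPM (null-labelled) and 15.3 CPM (control-labelled), and in erythroid-like cells at 1.02 and 3.88 CPM. Chil3 was at 642 and 2899 CPM in monocyte-like cells, lower in the null-labelled library and so opposite in direction to immature neutrophil-like cells, and this difference in direction was not tested. Mmp8, Cd177 and Fcnb were present in monocyte-like cells at lower levels, at 38.6 and 112, 12.2 and 53.5, and 26.5 and 48.9 CPM. Ltf, Camp and Ngp in monocyte-like cells were near their level in erythroid-like cells, for instance Camp at 14.7 and 59.3 CPM against 13.9 and 78.6 CPM. Macrophage-like cells of the control-labelled library had 1879 CPM of Camp and 1270 CPM of Ngp, against 61.6 and 84.8 CPM in the null-labelled library, and the part of attached or mixed granulocytes in this was not tested.

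Other gene groups were read beside the 8 in immature neutrophil-like cells, where 12.7% of 1955 genes tested were lower and 15.3% higher. Of the 10 other specific granule and myelocyte-stage genes, 9 passed the minimum, 1 was higher and 1 lower. Lcn2, the siderophore-binding lipocalin of the same granule, was at 38151 and 19951 CPM (log2 ratio 0.94). Pglyrp1, a peptidoglycan-binding protein, was at 2858 and 3036 CPM. Orm1, an acute-phase glycoprotein, was higher at 2634 and 179 CPM (log2 ratio 3.88), and Ceacam10 lower at 60.4 and 145 CPM (log2 ratio -1.26). Of 8 gelatinase granule genes 6 passed and none reached the 2-fold size, with Mmp9, gelatinase B, at 879 and 1434 CPM and the formyl peptide receptor gene Fpr2 at 540 and 352 CPM.

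The NADPH oxidase partners of Cybb differed less than Cybb itself. None of the 6 reached the 2-fold size in any stage, and their median log2 ratio in immature neutrophil-like cells was -0.59, beside -1.48 for Cybb. Cyba, the small flavocytochrome subunit, was at 2230 and 2084 CPM, the GTPase gene Rac2 at 671 and 1135 CPM, and Ncf1, a cytosolic organizer subunit, at 393 and 733 CPM. Of 10 granulocyte transcription regulators 6 passed, 1 was higher and 2 were lower, against 15.3% and 12.7% of all genes tested. Cebpb, a C/EBP factor of emergency granulopoiesis, was at 919 and 104 CPM (log2 ratio 3.15), and Spi1, which encodes PU.1, at 599 and 376 CPM. Cebpd was lower at 142 and 309 CPM (log2 ratio -1.12), and Cebpe at 237 and 481 CPM (log2 ratio -1.02), the latter named after its values were seen because its product is known to act on these genes.

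Of the paralogs and neighbours, 12 of the listed symbols were among the features and 1 passed the minimum. This was Lyz2, the lysozyme of myeloid cells, at 787 and 14257 CPM (log2 ratio -4.18). In the interferon response list, 11 of 12 passed and all 11 were higher, against 15.3% of all genes tested. Their median log2 ratio was 4.72. Ifitm3 was at 6228 and 1050 CPM. Gbp2 was at 758 and 0.834 CPM, from 4 control-labelled UMIs, and Ifit3 at 180 and 0.417 CPM, from 2. The part of this response in the differences of the 8 genes was not tested.

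The genes most alike in pattern to each of the 8 were found by the correlation of log2(CPM + 20) over 22 points, 11 cell classes in 2 libraries, among 5812 genes. These points share their libraries and clusters, and the values are descriptions. Ltf was most like Itgb2l (r = 0.96), Abca13 and Klf5. Camp was most like S100a9 (r = 0.97), Cebpe and S100a8, and Ngp like S100a9 (r = 0.97), S100a8 and Wfdc21. Chil3 was most like C3 (r = 0.96), Ltb4r1 and Tbc1d8, and Mmp8 like Rasgrp4 (r = 0.95), Cd33 and Retnlg. Cd177 was most like Pram1 (r = 0.98), Alox5 and Ifitm6, Fcnb like Lbp (r = 0.94), Msantd3 and Cebpe, and Cybb like Aldh2 (r = 0.90), Spi1 and Mgst1. Itgb2l, Abca13, Wfdc21, Ifitm6 and Retnlg were also stage markers. Among the 8 genes, the pair most alike was Camp and Ngp (r = 0.98) and the pair least alike Mmp8 and Fcnb (r = 0.21), the latest and the earliest of the set.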

How the data were processed

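The deposited matrices hold raw counts of unique molecular identifiers (UMIs), 1 whole number for each gene and barcode. Per the submitters' processing notes, they were made with Cell Ranger 3.0 and Seurat on mm10, and per the file headers with software version 3.1.0. No further step before deposit is recorded in the labels or headers.

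The matrices held 4281 barcodes with 44694854 UMIs (null-labelled) and 12764 with 79192158 (control-labelled). Barcodes under 200 genes or over 10% mitochondrial UMIs were removed (1307 and 3479), then Scrublet's highest doublet scores at 0.8% per 1000 cells (71 and 690 cells, where its automatic threshold marked 12 and 399). Both libraries were clustered jointly with scanpy 1.11.5 (2000 variable genes, 30 components, 15 neighbours, Leiden resolution 1, clusters of 60 or more cells split at 0.5), leaving out the 8 genes, mitochondrial, ribosomal, hemoglobin, immunoglobulin and sex-linked genes, Malat1, Gm42418 and Itgb3. Clusters were named from marker lists without the 8 genes, so names are rebuilt here. Scores behind the names, a 10% detection minimum, and the 500 CPM of division genes that define the dividing stage were set after the data were seen (nearest clusters at 208, 797 and 815 CPM).

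UMIs were summed per stage and library and given as CPM with exact Poisson intervals, and ratios with an exact interval from the split of UMIs. Shares were computed after thinning to 1000 UMIs. Scripts were tested on simulated counts. The 8 genes, the lists and the rules were chosen with earlier results of these data known. Always reported were the 8 genes. For each list, the 2 genes of highest CPM and the 2 of largest ratio in immature neutrophil-like cells were named, and for each of the 8 genes the 3 most correlated genes, predicted genes left out. Gene positions are from GENCODE vM21 (30934 of the features' IDs, 99.6%, were found there).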

Additional observations from a re-analysis of the deposited data

Results flagged for a closer look

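In 3 of the 8 genes the difference between libraries reached the 2-fold size, with enough counts, in opposite directions at 2 stages. The share of all genes that did so was not counted, so this count is no result about the 8 genes as a set. In none of the 3 was the difference between stages tested, since each genotype was 1 library. The log2 ratio of Ltf was 2.31 in mature neutrophil-like and -3.40 in promyelocyte-like cells, a difference of 5.71. That of Camp was 2.38 and -1.93 at the same stages, a difference of 4.31. That of Cybb was 1.43 in promyelocyte-like and -1.48 in immature neutrophil-like cells, a difference of 2.91. The mature-stage values of Ltf and Camp turned sign against the control-labelled cluster nearest in marker share, and the promyelocyte value of Cybb was 0.32 among the promyelocyte-like clusters richest in immature markers.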

How the results depend on the processing

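Over 11 other ways of processing, 281 of 286 ratios of single genes kept their sign. The exceptions were Cybb in mature (3) and Mmp8 in dividing cells (2). Sets of clusters chosen after the data were seen, given below, are not among these ratios. Scaling by trimmed mean of M-values moved all log2 ratios of a stage by 0.13 (dividing), -0.10 (promyelocyte and immature) and -0.32 (mature), and scaling without interferon genes, the 8 genes and the 20 top genes moved them by -0.11 in immature and -0.15 in mature cells. Where counts of called genes changed, the cause was not tested. Shares of all genes called under these settings are not given here, so the counts are no result about the 8 genes as a set. In mature cells, the 1 lower gene became 0 with a limit of 5% mitochondrial UMIs, no doublets removed, each library clustered on its own, means over cells, thinning, or a 3-fold size. In dividing cells, the 1 lower gene became 0 with separate clustering, a gate on single cells, trimmed mean scaling, thinning or a 3-fold size, and 2 with free RNA subtracted. In immature cells, the 1 higher gene became 2 with separate clustering and 0 at 3-fold, where the 3 lower became 1. In promyelocyte-like cells, the 2 lower became 4 with a minimum of 10 UMIs only, and the 1 higher became 0 at 3-fold. Among alternatives added after the data were seen, clusters matched by marker share gave 5 lower and 1 higher in mature cells. Their log2 ratios were reversed for Ltf (-2.11) and Camp (-1.53) and near level for Ngp (-0.0082). Mature clusters with 10000 CPM or more of immature markers gave 2 lower, and promyelocyte clusters with 4000 CPM or more gave 0 higher. No paired analysis was possible because each genotype was 1 library. Leaving out a library leaves no comparison.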
